A study of Mus musculus with 11 samples.

Results

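The renal endothelium was followed through 10 genes: Pecam1, Kdr, Flt1, Tek, Emcn, Ehd3, Plvap, Cdh5, Vwf and Vegfa. They were chosen by symbol, from what is known of the cells that line renal vessels, and with earlier results of these data known. All 10 of the 10 symbols were found among the 25677 genes listed. Vegfa is the only one that endothelial cells do not mainly make, being the growth factor on which glomerular endothelium depends, made by podocytes and tubule cells. Total RNA was sequenced from 1 kidney sample per mouse of 3 C57BL/6J control mice (genotype given as C57B6, called Ctr) and of 8 MRL/lpr mice, of which 4 had no treatment (Lpr) and 4 received DNase I (DNase). All mice were female and 21 weeks old, and the treated mice had received daily intraperitoneal injections of DNase I, an enzyme that digests DNA outside cells, until they were killed. MRL/lpr mice carry the lpr mutation of Fas on the MRL background and develop a nephritis like that of lupus, whereas the control mice have neither the mutation nor that background, so disease and strain cannot be told apart in any comparison with Ctr. The study asked which genes of the kidney differ with this nephritis and with its treatment.

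Vascular endothelial growth factor A, the product of Vegfa, binds 2 receptors on endothelial cells. VEGFR2, encoded by Kdr, carries most of the signal for survival and permeability, while VEGFR1, encoded by Flt1, binds the ligand tightly and also exists as a soluble form that holds the ligand away from VEGFR2. Tek encodes TIE2, the receptor of the angiopoietins, which keeps vessels quiescent. The glomerular capillary, where the filtrate forms, has open fenestrae, whereas the fenestrae of peritubular capillaries are closed by diaphragms made of the product of Plvap. The counts given here are per gene, so the membrane and soluble forms of Flt1, and the splice forms of Vegfa, are summed.

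Each kidney's library held from 33469858 to 38460873 counts over all genes. Values are given as CPM, the usual depth-scaled count, computed here with library sizes scaled by TMM, in the order of replicates 1 to 3 for Ctr and 1 to 4 for Lpr and DNase. The library of Lpr replicate 3 stood apart. Over 13813 genes, its log2 CPM relative to the mean of all kidneys had a slope of -0.43 per doubling of gene length, against slopes between -0.045 and 0.085 in the other 10 kidneys. The fold changes of the 10 genes in the comparisons that use this kidney are therefore given also without it. Group means in FPKM and fits with a covariate are given with it only. The kidneys also differed in RNA of neighbouring tissues. The summed level of 8 fat markers (Adipoq, Plin1, Cidec, Lep, Cfd, Retn, Lipe and Thrsp) was 515, 60.3 and 1061 CPM in Ctr, 44.0, 51.5, 1308 and 767 CPM in Lpr and 29.4, 275, 42.9 and 136 CPM in DNase. These 8 were kept, after the values were seen, from a list of 10 that also held Pck1 and Fabp4, which tubule and endothelial cells express too. The value of 1308 CPM comes from Lpr replicate 3, the kidney with the steep slope on gene length, and the part of length in it was not tested. In bulk tissue, fewer cells of a type and less RNA per cell cannot be told apart, and this holds for every gene below.

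The 3 receptor and surface genes whose levels separated Lpr from Ctr most clearly once Lpr replicate 3 was left out, Kdr, Emcn and Tek, are shown with the 250 bases before their start in RefSeq (GRCm38.p6), as the table gave a window for 6 of the 10 genes. In the annotation GENCODE vM21 of mm10, the build named for these counts, Kdr lies at chr5:75932827-75978458 on the minus strand, Tek at chr4:94739289-94874976 on the plus strand and Emcn at chr3:137341067-137432185 on the plus strand. No other annotated gene shares exonic bases with any of the 10 genes. Capitals mark each GGAA, the core bound by ETS factors, or its reverse complement TTCC, and the windows are chr5:75978456-75978705, chr4:94739039-94739288 and chr3:137340828-137341077.
Kdr: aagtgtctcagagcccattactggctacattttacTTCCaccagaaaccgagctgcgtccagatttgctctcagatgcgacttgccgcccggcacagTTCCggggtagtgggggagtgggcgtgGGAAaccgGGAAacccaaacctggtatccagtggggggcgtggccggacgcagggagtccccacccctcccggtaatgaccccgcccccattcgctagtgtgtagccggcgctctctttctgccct
Tek: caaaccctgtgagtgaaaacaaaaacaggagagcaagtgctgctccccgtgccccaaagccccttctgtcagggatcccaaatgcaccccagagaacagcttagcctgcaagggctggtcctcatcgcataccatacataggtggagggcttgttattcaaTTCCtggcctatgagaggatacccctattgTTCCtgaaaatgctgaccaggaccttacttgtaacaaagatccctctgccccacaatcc
Emcn: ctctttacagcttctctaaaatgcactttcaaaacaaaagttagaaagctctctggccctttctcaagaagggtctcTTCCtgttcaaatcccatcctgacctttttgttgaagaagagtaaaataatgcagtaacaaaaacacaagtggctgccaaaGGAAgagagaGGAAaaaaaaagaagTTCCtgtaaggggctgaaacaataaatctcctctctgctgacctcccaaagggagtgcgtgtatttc
The Kdr and Emcn windows held 4 matches each and the Tek window 2, and the windows of Flt1 and Ehd3 held 4 and 3. Vegfa had 2 windows, with 6 and 2 matches. Of 32851 promoter windows of the same length, 93.4% held at least 1 match, with a median of 3. The 7-letter form CCGGAAG was found in 6.91% of all windows and in none of the windows of the 6 genes.

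**Figure D1:**
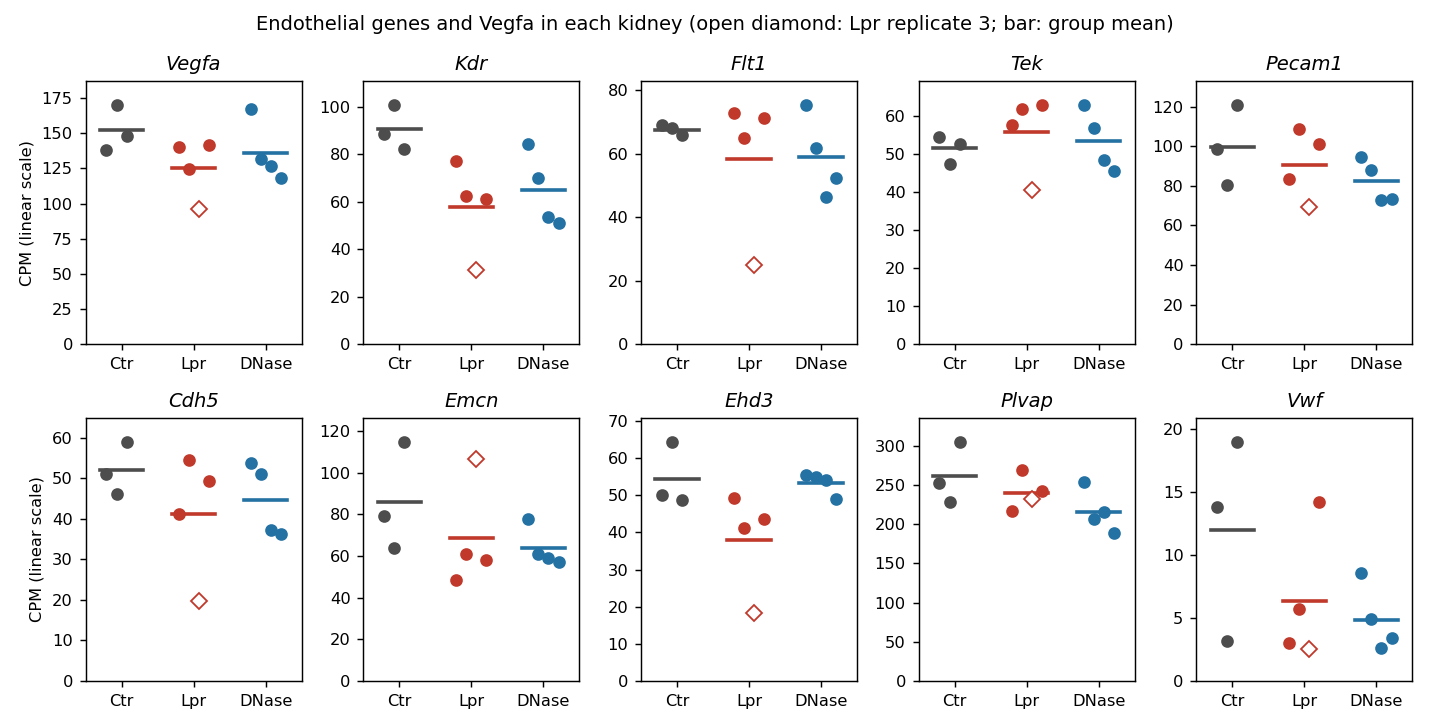
CPM of each gene (vertical axis, linear scale from 0) in every kidney of Ctr, Lpr and DNase (horizontal axis); each point is 1 kidney, the bar is the group mean and the open diamond is Lpr replicate 3. All Lpr points of Kdr lie under all Ctr points, and the Lpr replicate 3 diamond is the lowest Lpr point for every gene except Emcn, where it is the highest at 106 CPM, and Plvap.

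Vegfa, at chr17:46016993-46032369, was measured at 138, 170 and 148 CPM in Ctr, at 140, 124, 96.0 and 142 CPM in Lpr and at 167, 132, 126 and 118 CPM in DNase. The groups overlapped. The receptor gene Kdr was measured at 88.3, 101 and 82.3 CPM in Ctr, at 77.0, 62.4, 31.0 and 61.0 CPM in Lpr and at 84.5, 69.9, 53.7 and 50.8 CPM in DNase. Every Lpr kidney lay below every Ctr kidney, while the first DNase kidney lay within the range of Ctr. Flt1, at chr5:147561604-147726011, was measured at 69.1, 68.1 and 65.9 CPM in Ctr, at 72.9, 64.9, 24.9 and 71.4 CPM in Lpr and at 75.4, 61.9, 46.3 and 52.5 CPM in DNase. Apart from Lpr replicate 3, the Lpr kidneys lay around the narrow range of Ctr. Tek was measured at 54.3, 47.5 and 52.6 CPM in Ctr, at 57.5, 61.8, 40.6 and 62.7 CPM in Lpr and at 62.8, 56.7, 48.5 and 45.4 CPM in DNase. Here the Lpr kidneys other than replicate 3 all lay above Ctr.

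Pecam1, at chr11:106654217-106750628, encodes CD31, an adhesion molecule of endothelial junctions that leukocytes and platelets also carry. It was measured at 98.5, 80.3 and 121 CPM in Ctr, at 83.7, 109, 69.3 and 101 CPM in Lpr and at 94.7, 87.9, 72.9 and 73.3 CPM in DNase, and the groups overlapped. Cdh5, at chr8:104101625-104144511, encodes VE-cadherin, the adherens junction protein of endothelium. It was measured at 50.9, 46.1 and 59.0 CPM in Ctr, at 41.1, 54.6, 19.7 and 49.2 CPM in Lpr and at 53.6, 50.9, 37.3 and 36.3 CPM in DNase. Lpr replicate 3 was the lowest of the 11 kidneys, and replicates 3 and 4 were the lowest within DNase.

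Emcn encodes endomucin, a sialomucin of the capillary and venous surface. It was measured at 79.2, 64.0 and 115 CPM in Ctr, at 48.5, 61.0, 106 and 57.9 CPM in Lpr and at 77.8, 61.2, 58.9 and 56.9 CPM in DNase. Lpr replicate 3 was the only Lpr kidney above the lowest Ctr kidney. The kidneys with the most Emcn, Ctr replicate 3 and Lpr replicate 3, were also those with the most of the 8 fat markers, and fits with this fat sum as a covariate stand with the comparisons. In Lpr replicate 3, the 668 genes within 10% of the length of Emcn had a median of 0.74 above the other Lpr kidneys in log2 CPM. Ehd3, at chr17:73804134-73832094, encodes a membrane trafficking protein that in the kidney is enriched in glomerular endothelium. It was measured at 50.1, 64.5 and 48.8 CPM in Ctr, at 49.2, 41.3, 18.2 and 43.6 CPM in Lpr and at 55.4, 54.9, 54.2 and 48.9 CPM in DNase. The highest Lpr kidney stood just above the lowest DNase kidney and within the range of Ctr.

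Plvap, at chr8:71497765-71511752, was measured at 252, 228 and 305 CPM in Ctr, at 216, 269, 232 and 242 CPM in Lpr and at 253, 207, 216 and 188 CPM in DNase. The groups overlapped. Vwf, at chr6:125546774-125686679, encodes the von Willebrand factor that larger vessels and platelets store. It was measured at 13.8, 3.19 and 19.0 CPM in Ctr, at 3.04, 5.71, 2.53 and 14.2 CPM in Lpr and at 8.52, 4.94, 2.58 and 3.39 CPM in DNase. The spread within Ctr and within Lpr was as wide as any difference between groups. Of the 4 kidneys with over 500 CPM of fat markers, 3 had the 3 highest levels of Vwf, Ctr replicate 3, Lpr replicate 4 and Ctr replicate 1, and the other, Lpr replicate 3, had the lowest. Summed markers of platelets and megakaryocytes (9 genes, led by Itga2b and Pf4) lay between 6.57 and 14.1 CPM in all kidneys, with the highest sum in Lpr replicate 3, and Gp9, Gp1ba, Gp5 and Treml1 had no read in at least 1 kidney.

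Compared per length as FPKM, the order of the genes was headed in every group by Plvap, then Emcn, Vegfa and Pecam1. Plvap had 120 ± 20.7 FPKM in Ctr (SD, n = 3), 113 ± 14.4 in Lpr (SD, n = 4) and 106 ± 14.4 in DNase (SD, n = 4). Emcn followed with 56.6 ± 18.4, 45.5 ± 14.7 and 44.7 ± 7.08 FPKM, and Vegfa with 35.2 ± 2.87, 30.0 ± 6.13 and 33.7 ± 5.67 FPKM. Pecam1 had 29.1 ± 6.57, 27.3 ± 6.54 and 25.5 ± 3.59 FPKM, within its SD of Vegfa in Ctr and Lpr but not in DNase. Ehd3, Cdh5, Kdr and Tek lay close together, between 7.40 FPKM for Kdr in Lpr and 15.1 FPKM for Ehd3 in DNase, and their order differed between groups. Flt1, with group means between 4.23 and 4.69 FPKM, stood ninth and Vwf, with means between 0.564 and 1.31 FPKM, last in all groups. The length used for Flt1, 13929 bp, is the longest of the 10, and that of Emcn, 1476 bp, the shortest.

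No gene of the 10 passed the test between Lpr and Ctr at an adjusted p under 0.05 (edgeR quasi-likelihood test, Benjamini-Hochberg over 16074 genes), where 10.2% of all genes tested did, 7.27% higher and 2.92% lower. At an unadjusted p under 0.05 stood 1 of the 10, Kdr, against 21.4% of all genes. Of the 10 log2 fold changes 9 were below 0, with a median of -0.30 against 0.03 over all genes tested. The change of Kdr was -0.64 (standard error, SE, 0.28, 95% interval -1.27 to -0.01, adjusted p = 0.229 from edgeR), a fold of 0.642. That of Ehd3 was -0.51 (SE 0.31, adjusted p = 0.413 from edgeR) and that of Vwf -0.91 (SE 0.70, adjusted p = 0.524 from edgeR). Cdh5 and Emcn both stood at -0.33, Vegfa at -0.27, Flt1 at -0.21, Pecam1 at -0.14, Plvap at -0.13 and Tek at 0.12, with adjusted p-values from edgeR between 0.455 and 0.779. The intervals were wide. That of Cdh5 ran from -1.06 to 0.39 and that of Flt1 from -0.96 to 0.55, so that changes of this size were not detectable here. Kdr was the only one of the 10 whose Lpr and Ctr kidneys did not overlap, where 11.2% of all genes tested had every Lpr kidney below every Ctr kidney. With an offset for gene length and all kidneys, 0 of the 10 were called, against 13.9% of all genes. In that fit Emcn stood at -0.65 (adjusted p = 0.0674 from edgeR) and Kdr at -0.63 (adjusted p = 0.057 from edgeR). It put 4 of the 10 at an unadjusted p under 0.05, against 4535 of the 16074 genes.

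Without Lpr replicate 3, 1 of the 10 genes was called, lower, against 17.8% of the 15855 genes tested (11% higher and 6.79% lower). At an unadjusted p under 0.05 stood 3 of the 10, against 31.4% of all genes. Kdr fell by 0.43 on the log2 scale (SE 0.12, 95% interval -0.72 to -0.15, adjusted p = 0.0487 from edgeR), from 90.4 ± 9.41 CPM in Ctr (SD, n = 3) to 66.8 ± 8.89 CPM in Lpr (SD, n = 3). This call rests on the margin of the threshold, since its adjusted p was 0.0532 when the same kidneys were fitted with an offset for gene length. Emcn had 55.8 ± 6.49 CPM in these Lpr kidneys (SD, n = 3) and a log2 fold change of -0.62 (SE 0.21, adjusted p = 0.0864 from edgeR), with all Lpr kidneys below Ctr. Tek had 60.7 ± 2.79 CPM (SD, n = 3) and a log2 fold change of 0.24 (SE 0.09, adjusted p = 0.111 from edgeR), with all Lpr kidneys above Ctr. Without overlap, 18% of all genes were lower and 19.9% higher in this comparison, so 3 of 10 genes without overlap is near that background. Flt1 turned to 0.05 (95% interval -0.14 to 0.24) and Ehd3 to -0.28 (95% interval -0.59 to 0.03). Vwf stood at -0.64, Vegfa at -0.16, Plvap at -0.11, Cdh5 at -0.10 and Pecam1 at -0.02. The median of the 10 genes was -0.14, against 0.00 over all genes tested.

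**Figure D2:**
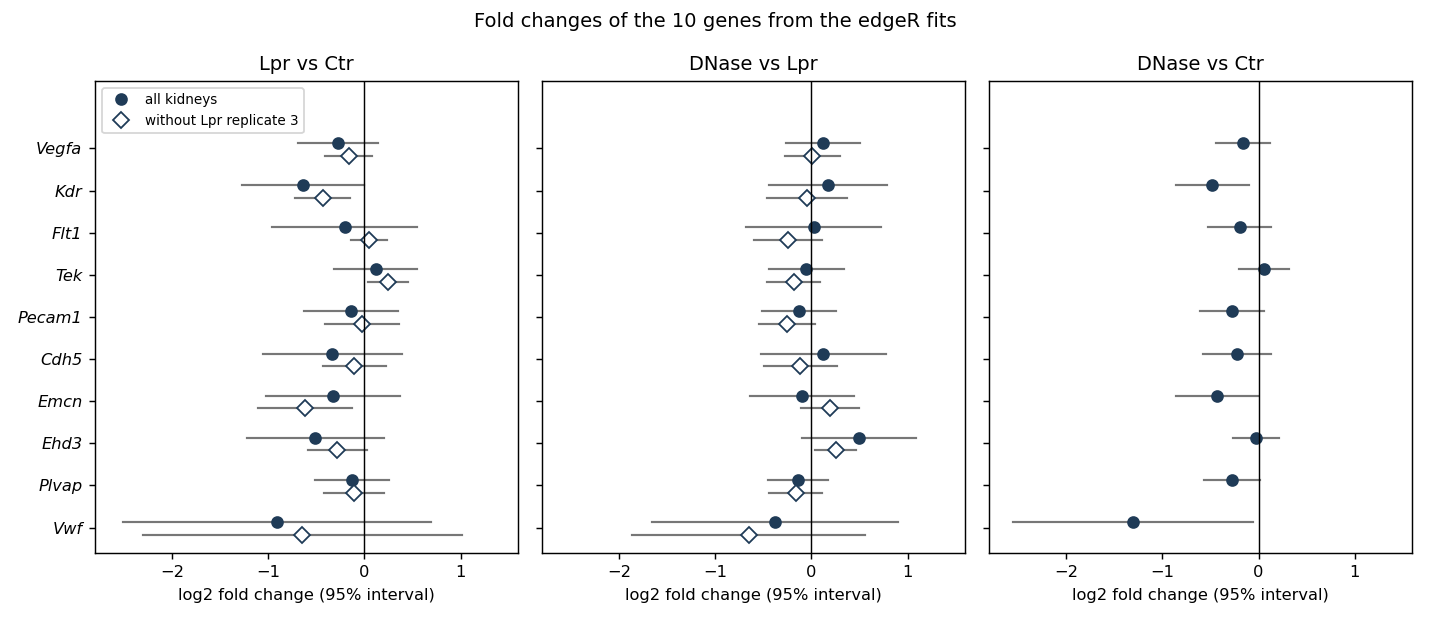
Log2 fold change (horizontal axis) of each gene (vertical axis) in the 3 comparisons, from edgeR; filled circles use all kidneys, open diamonds leave out Lpr replicate 3, and lines are 95% intervals. Leaving out that kidney moved Kdr from -0.64 to -0.43 and Emcn from -0.33 to -0.62 in Lpr against Ctr, and DNase against Ctr does not use it.

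The displacement of the genes in Lpr replicate 3 ordered largely with their length. Its log2 CPM minus the mean of the other Lpr kidneys was 0.94 for Emcn, the shortest of the 10, and -1.48 for Flt1, the longest. The 2 sets of genes of a length within 10% of these had medians of 0.74 (668 genes) and -0.82 (239 genes). Plvap stood at -0.06, Pecam1 and Vegfa both at -0.49, Tek at -0.58, Kdr at -1.10 and Vwf at -1.30. Ehd3, of 3658 bp, stood at -1.29 and Cdh5, of 4038 bp, at -1.28, where genes of similar length had medians of -0.15 and -0.24. Set against a smooth fit of all genes on length, 9 of the 10 genes lay below it in this kidney, from -0.20 for Tek to -1.12 for Ehd3, and Emcn lay 0.26 above it. Markers of podocytes (10 genes), the other cells of the glomerular filter, summed to 676 CPM in this kidney and to between 993 and 1158 CPM in the other 10, and their part in the low level of Ehd3 was not tested.

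**Figure D3:**
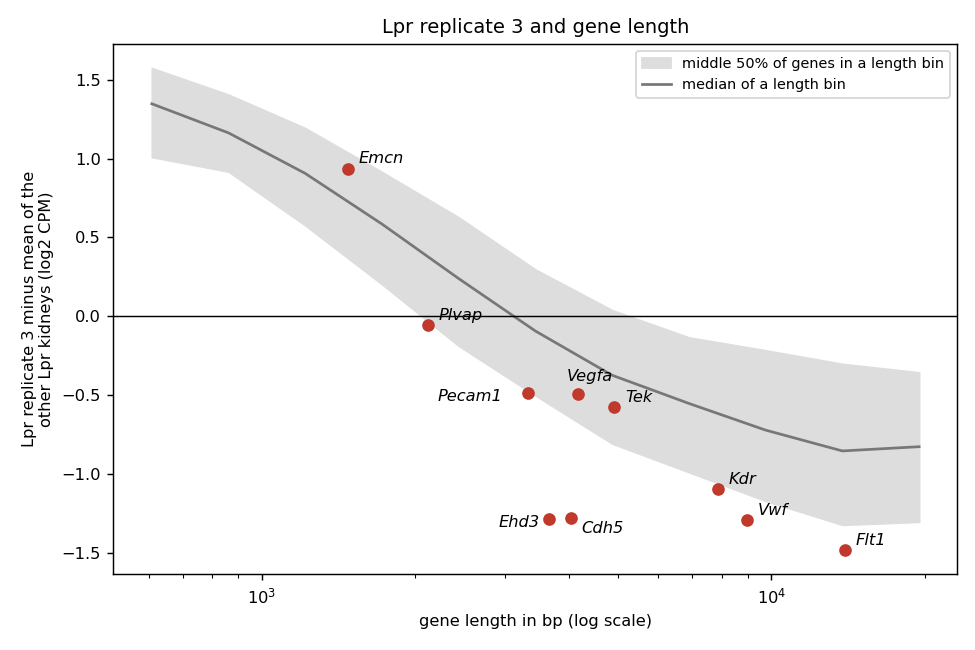
Log2 CPM of Lpr replicate 3 minus the mean of the other Lpr kidneys (vertical axis) against gene length in bp (horizontal axis, log scale); the line is the median and the grey band the middle 50% of all genes in bins of length, and red points are the 10 genes. Emcn lies above the line at 0.94, and Ehd3 and Cdh5 lie farthest below it, at -1.29 and -1.28.

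Between DNase and Lpr no gene of the 10 was called, and 0% of the 15832 genes tested were called by edgeR, with 886 genes (5.6%) at an unadjusted p under 0.05, none of the 10 among them, and 24 genes called by DESeq2. The kidneys of both groups overlapped for all 10 genes, where 3.79% of all genes tested did not overlap. The median log2 fold change of the 10 genes was -0.02, as over all genes tested. Ehd3 had 38.1 ± 13.7 CPM in Lpr (SD, n = 4) and 53.3 ± 3.01 CPM in DNase (SD, n = 4), a log2 fold change of 0.49 (SE 0.26, 95% interval -0.10 to 1.08, adjusted p = 0.854 from edgeR). Without Lpr replicate 3 the mean of Ehd3 in Lpr was 44.7 ± 4.07 CPM (SD, n = 3) and the change 0.25 (95% interval 0.04 to 0.47, unadjusted p = 0.0243 and adjusted p = 0.436 from edgeR). In that setting 0% of 16006 genes were called and 10.1% stood at an unadjusted p under 0.05, Ehd3 being the only one of the 10, and the groups overlapped for all 10 genes, where 9.44% of all genes did not. The DNase mean of Ehd3 lay next to that of Ctr, 54.5 ± 8.68 CPM (SD, n = 3). For Kdr the change was 0.17 (95% interval -0.44 to 0.78) and, without Lpr replicate 3, -0.05 (95% interval -0.46 to 0.37). Flt1 moved from 0.02 to -0.24, Cdh5 from 0.12 to -0.12 and Emcn from -0.10 to 0.19 when that kidney was left out, so the direction of these 4 genes between DNase and Lpr depended on 1 library. Vwf stood at -0.38 (95% interval -1.65 to 0.89), at -0.65 without Lpr replicate 3 and at 0.38 without Lpr replicate 4. Without Lpr replicate 3, Vegfa moved from 0.12 to 0.007, Tek from -0.05 to -0.18, Pecam1 from -0.13 to -0.25 and Plvap from -0.14 to -0.16.

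Between DNase and Ctr no gene of the 10 was called, where 21.7% of the 16100 genes tested were called. At an unadjusted p under 0.05 stood 3 of the 10 (Kdr, Emcn and Vwf), against 33.5% of all genes, and none of the 10 was without overlap between the groups, against 31.9%. Again 9 of the 10 log2 fold changes were below 0, with a median of -0.25 against 0.00 over all genes, and both comparisons use the same 3 Ctr kidneys. Kdr had 64.7 ± 15.6 CPM in DNase (SD, n = 4) and a log2 fold change of -0.48 (SE 0.17, 95% interval -0.86 to -0.10, adjusted p = 0.0726 from edgeR). This value passed the threshold with DESeq2 (adjusted p = 0.0236, where DESeq2 called 25.5% of all genes), with an offset for gene length (adjusted p = 0.0266 from edgeR, 26.1% of all genes called) and without DNase replicate 1 (adjusted p = 0.0106 from edgeR, 21.5% of all genes called). Vwf had a change of -1.31 (SE 0.55, adjusted p = 0.132 from edgeR) and Emcn of -0.43 (SE 0.19, adjusted p = 0.143 from edgeR). Both passed without Ctr replicate 2, the Ctr kidney with the least fat, at -1.75 (adjusted p = 0.0151 from edgeR) and -0.61 (adjusted p = 0.0367 from edgeR), where 19.7% of all genes were called. With the sum of the 8 fat markers as a covariate, a setting chosen after the data were seen, the changes were -0.56 for Vwf (adjusted p = 0.685 from edgeR), -0.26 for Emcn (adjusted p = 0.49 from edgeR) and -0.59 for Kdr (adjusted p = 0.0597 from edgeR). In the same setting Lpr differed from Ctr by -0.74 for Kdr (adjusted p = 0.0948 from edgeR), -0.51 for Vwf and -0.25 for Emcn. That fit used Lpr replicate 3 and was not repeated without it. Ehd3 stood at -0.03 (95% interval -0.26 to 0.21), Plvap at -0.28, Pecam1 at -0.28, Cdh5 at -0.22, Flt1 at -0.20, Vegfa at -0.16 and Tek at 0.06.

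Ratios of FPKM within a kidney do not depend on library scaling, and are given here without a test. The ratio of Flt1 to Kdr was 0.441, 0.381 and 0.451 in Ctr, 0.533, 0.586, 0.451 and 0.659 in Lpr and 0.503, 0.498, 0.486 and 0.582 in DNase. All MRL/lpr kidneys except Lpr replicate 3, which stood level with the highest Ctr kidney, lay above Ctr. The ratio of Vegfa to Kdr, of ligand to receptor, was 2.95, 3.17 and 3.38 in Ctr, 3.42, 3.75, 5.81 and 4.37 in Lpr and 3.72, 3.55, 4.43 and 4.37 in DNase. The highest Ctr value was 3.38 and the lowest MRL/lpr value 3.42. The share of other gene pairs whose ratios separate in this way was not computed, and 31.9% of single genes did not overlap between DNase and Ctr. The ratio of Plvap, of peritubular capillaries, to Ehd3, of glomerular endothelium, was 8.69, 6.11 and 10.8 in Ctr, 7.58, 11.2, 22.0 and 9.56 in Lpr and 7.89, 6.51, 6.87 and 6.65 in DNase. Of the 4 DNase kidneys 3 lay below all Lpr kidneys, and all 4 lay within the range of Ctr. Kdr, of 7843 bp, is longer than Vegfa, of 4174 bp, and shorter than Flt1, and Lpr replicate 3 had the highest ratio of Vegfa to Kdr and the lowest ratio of Flt1 to Kdr among the Lpr kidneys. Plvap to Kdr ran from 8.39 to 13.7 in Ctr, 10.4 to 27.6 in Lpr and 11.0 to 14.9 in DNase, and Vwf to Pecam1 from 0.0148 to 0.0585, 0.0135 to 0.0524 and 0.0132 to 0.0335.

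**Figure D4:**
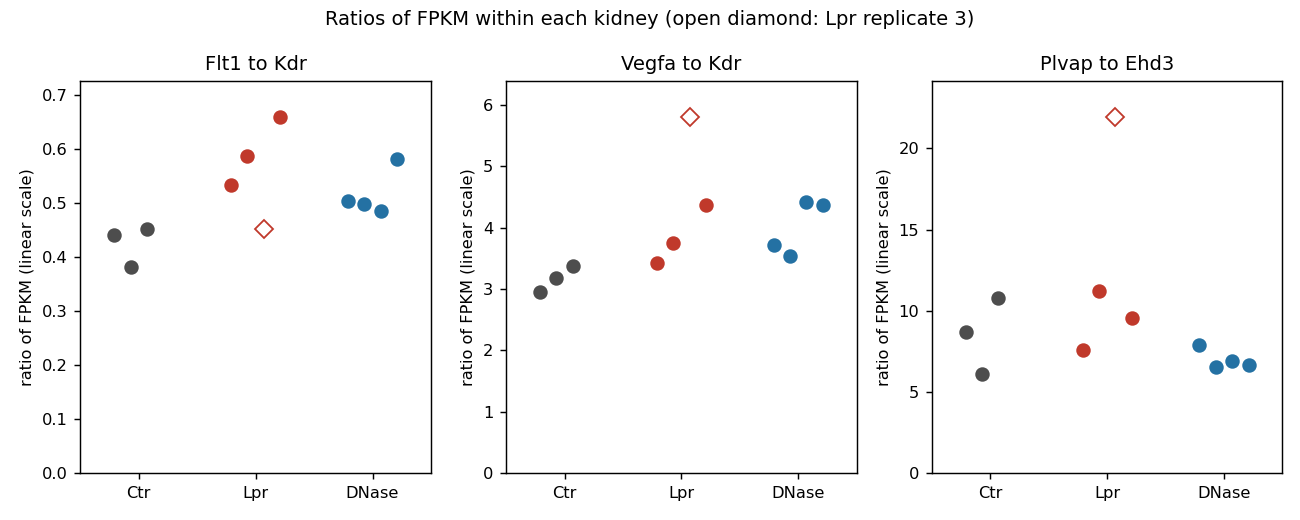
Ratio of FPKM (vertical axes, linear scale from 0) of Flt1 to Kdr, Vegfa to Kdr and Plvap to Ehd3 in every kidney by group (horizontal axis); each point is 1 kidney and the open diamond is Lpr replicate 3. For Vegfa to Kdr the highest Ctr kidney, at 3.38, lies next to the lowest MRL/lpr kidney, at 3.42, and the DNase kidneys lie between 6.51 and 7.89 for Plvap to Ehd3.

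Among themselves the genes varied together in part. Over the 11 kidneys, Pearson's r of log2 CPM was 0.92 between Vegfa and Kdr and 0.91 between Flt1 and Cdh5. Without Lpr replicate 3 these 2 values were lower, at 0.84 and 0.64. Between Pecam1 and Cdh5 r was 0.81 over the 11 kidneys and 0.91 without that kidney. Between Pecam1 and Plvap it was 0.82 and 0.91. Without that kidney Ehd3 had positive values with Vegfa (0.57) and Kdr (0.51) and negative values with Pecam1 (-0.51) and Tek (-0.48). These values describe 11 or 10 kidneys that share groups, gene length effects and RNA of neighbouring tissue. The mean of the standardised log2 CPM of Kdr, Cdh5, Tek, Emcn and Pecam1 was lowest in Lpr replicate 3, DNase replicate 4 and DNase replicate 3, at -1.31, -0.86 and -0.70, and highest in Ctr replicate 3 at 1.03. Slopes of counts on gene length in DNase replicates 3 and 4 were the other 2 that lay below 0, at -0.045 and -0.0078. Among 13963 genes, those most like this mean were Abcc5 (r = 0.98), Lamb2 (r = 0.96), Stard13 (r = 0.95), Adgrf5 (r = 0.94) and Tmtc1 (r = 0.94) over the 11 kidneys. Over the 10 kidneys without Lpr replicate 3 they were Abcc5 (r = 0.98), Adgrf5 (r = 0.96), Lamb2 (r = 0.96), Lepr (r = 0.95) and Sun2 (r = 0.94). Lamb2 encodes a laminin chain of the glomerular basement membrane and Adgrf5 an adhesion receptor of endothelial cells. All 7 are genes of 4355 bp or longer. The share of all genes that are as long is not given here, and the part of length in this likeness was not tested.

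Of 13 other genes of the VEGF and angiopoietin pathway, 0 were called in each comparison. Of all genes tested, 10.2% were called between Lpr and Ctr, 0% between DNase and Lpr and 21.7% between DNase and Ctr. The count of 0 depended on the setting between DNase and Ctr, with 3 of 13 called (1 higher and 2 lower) with the offset for gene length, against 26.1% of all genes, and 1 of 13 (higher) with the fat covariate, against 19% of all genes. The values named here were chosen after they were seen. Angpt2, the ligand that competes with angiopoietin 1 for TIE2, had 35.6 ± 18.0 CPM in Ctr (SD, n = 3), 20.3 ± 4.56 CPM in Lpr (SD, n = 4) and 30.8 ± 9.54 CPM in DNase (SD, n = 4). Its log2 fold change was -0.81 between Lpr and Ctr (adjusted p = 0.229 from edgeR) and 0.61 between DNase and Lpr (adjusted p = 0.85 from edgeR). Angpt1, the ligand that activates TIE2, stood at 19.9 ± 0.601, 19.1 ± 5.21 and 18.8 ± 4.75 CPM. Vegfb, which binds VEGFR1, had a change of 0.37 between Lpr and Ctr (adjusted p = 0.225 from edgeR), and Tie1, the partner receptor of TIE2, of -0.20 (adjusted p = 0.51 from edgeR).

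Of 31 other genes shared by most endothelial cells, 1 rose and 2 fell between Lpr and Ctr, with a median of -0.10, against 7.27% and 2.92% of all genes tested. Without Lpr replicate 3 these 3 genes kept their calls and Cyyr1 also rose, by 0.71 on the log2 scale (adjusted p = 0.00997 from edgeR). Ramp2, a subunit of the adrenomedullin receptor, rose from 14.7 ± 1.09 to 30.5 ± 8.21 CPM, a log2 fold change of 1.05 (SE 0.22, adjusted p = 0.0184 from edgeR). Sox17, a transcription factor of arterial endothelium that is also in the arterial list, fell from 11.2 ± 1.16 to 5.07 ± 1.21 CPM, by 1.14 on the log2 scale (SE 0.24, adjusted p = 0.0174 from edgeR). Robo4, a receptor that stabilises vessels, fell from 22.5 ± 3.07 to 12.2 ± 1.91 CPM, by 0.88 on the log2 scale (SE 0.19, adjusted p = 0.0207 from edgeR). Between DNase and Ctr, 1 of the 31 rose and 6 fell, with a median of -0.17, against 13.1% and 8.61% of all genes tested. With the offset for gene length, 1 rose and 10 fell, 35.5% of the list against 26.1% of all genes. Ramp2 rose by 0.80, and Gpihbp1, which binds lipoprotein lipase on capillaries, fell by 0.93 (adjusted p = 0.00268 from edgeR), S1pr1, a receptor for sphingosine-1-phosphate, by 0.59 (adjusted p = 0.0134 from edgeR) and Sox17 by 0.75 (adjusted p = 0.0138 from edgeR) on the log2 scale.

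By vessel type, none of 7 markers of glomerular endothelium was called between Lpr and Ctr, and 2 rose between DNase and Ctr, Sost by 1.72 (adjusted p = 0.00471 from edgeR) and Gata5, a transcription factor, by 0.87 (adjusted p = 0.0311 from edgeR) on the log2 scale. Both were scarce, at 3.84 ± 0.507 and 1.99 ± 0.337 CPM in DNase. Of all genes tested, 10.2% were called between Lpr and Ctr and 21.7% between DNase and Ctr, 13.1% as higher. With the fat covariate 1 of the 7 glomerular markers was called between DNase and Ctr, against 19% of all genes. Of 7 genes of peritubular capillaries and vasa recta, Npr3, the clearance receptor for natriuretic peptides, fell by 1.07 between Lpr and Ctr (adjusted p = 0.0217 from edgeR), and Npr3 and Gpihbp1 fell between DNase and Ctr. With the offset for gene length, 2 of these 7 were called lower between Lpr and Ctr. Of 10 arterial genes, Sox17 was called in both comparisons with Ctr, and with the offset 2 of 10 were called in each, both lower. That offset called 13.9% of all genes between Lpr and Ctr and 26.1% between DNase and Ctr. Of 7 lymphatic genes 0 were called in each comparison, and with the length offset 1 was called lower between DNase and Ctr. With the fat covariate 1 lymphatic gene was called higher between Lpr and Ctr, against 10% of all genes.

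A list of genes that activated endothelium is known to raise gave more calls. Like the other lists it was chosen with earlier results of these data known, so its counts are a description. Of 8 tested between Lpr and Ctr, 4 rose and none fell, with a median log2 fold change of 1.98, where 7.27% of all genes tested were called higher. Vcam1, which binds leukocytes, rose from 14.0 ± 1.17 to 172 ± 116 CPM, by 3.62 on the log2 scale (SE 0.53, adjusted p = 0.00351 from edgeR). Without Lpr replicate 3, 5 of 8 rose, Tnfaip3 being the addition, where 11% of all genes tested were called higher. Icam1, another adhesion molecule, rose by 1.42 (adjusted p = 0.0211 from edgeR), Sele, the E-selectin of activated endothelium, by 1.90 (adjusted p = 0.0118 from edgeR) and Lrg1, a secreted protein of inflamed vessels, by 2.41 (adjusted p = 0.00389 from edgeR) on the log2 scale. Between DNase and Ctr 7 of 9 rose, where 13.1% of all genes tested were called higher. Vcam1 stood at 76.1 ± 15.1 CPM and a log2 fold change of 2.44, Icam1 at 0.92, Sele at 1.99 and Tnfaip3, an inhibitor of NF-kappaB, at 1.22. Between DNase and Lpr none of 9 was called, where 0% of all genes tested were, although 8 of the 9 fold changes were below 0, with a median of -0.63. Vcam1 stood at -1.17 (SE 0.41, adjusted p = 0.82 from edgeR), and Lrg1 at -1.23 (SE 0.31, adjusted p = 0.82 from edgeR), with all DNase kidneys below all Lpr kidneys, which 1.87% of all genes tested showed. Several of these genes are expressed by cells other than endothelium, among them tubule cells and leukocytes. Of 15 leukocyte markers tested, 13 rose between Lpr and Ctr, against the 7.27% of all genes given above. They were led by Cd8a, Lyz2, Itgam and Ptprc, with log2 fold changes of 4.31, 4.00, 3.74 and 2.94. The 16 leukocyte markers listed summed to between 58.0 and 108 CPM in Ctr, 746 and 1433 CPM in Lpr and 567 and 1069 CPM in DNase, with Ly6g at 0 in at least 1 kidney of each group, and their part in the activation genes was not tested.

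**Figure D5:**
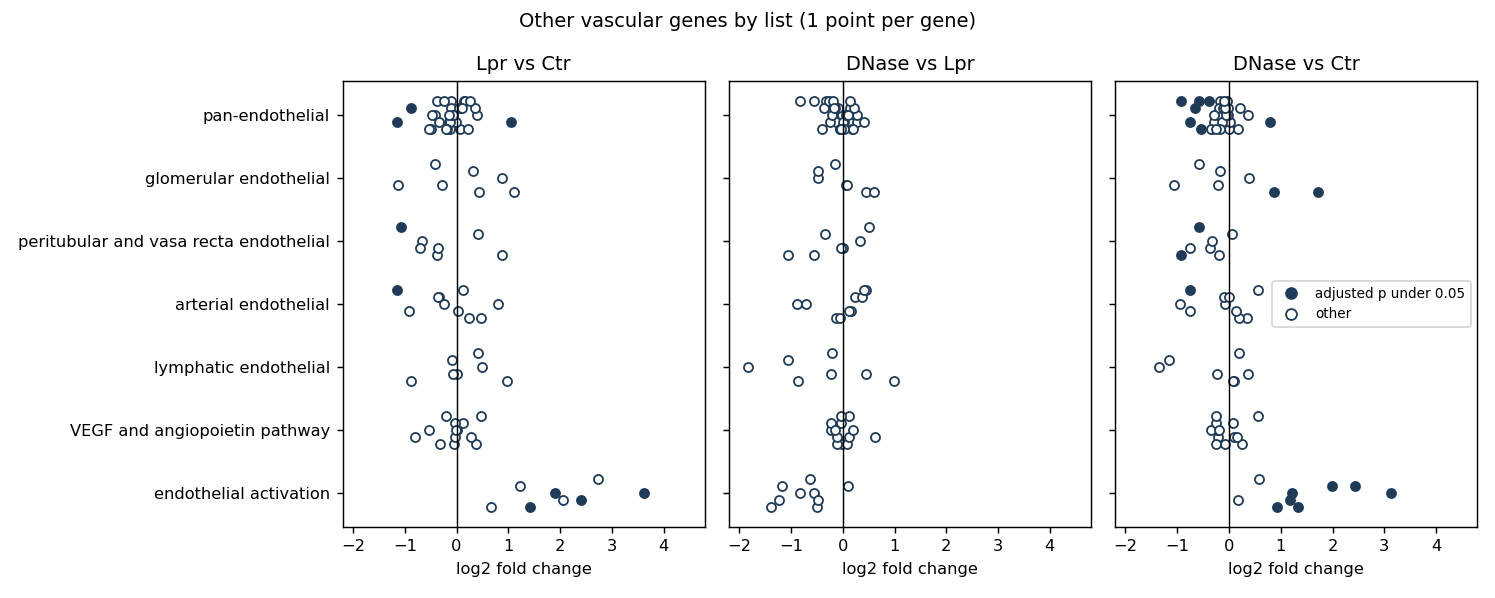
Log2 fold change (horizontal axis) of each other vascular gene in 7 lists (vertical axis) in the 3 comparisons, from edgeR; each circle is 1 gene, filled where its adjusted p was under 0.05, and the vertical offset within a list has no meaning. The activation genes lie to the right of 0 in both comparisons with Ctr, with 4 of 8 and 7 of 9 filled, while the other lists lie around 0 with few filled circles.

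The summed level of the 9 endothelial genes without Vegfa was 757, 703 and 869 CPM in Ctr, 649, 729, 545 and 703 CPM in Lpr and 766, 656, 590 and 556 CPM in DNase, a sum in which Plvap weighs most. The groups overlapped. For the counts that follow, the shares of all genes tested that were called were 10.2% between Lpr and Ctr and 17.8% without Lpr replicate 3. Between DNase and Ctr they were 21.7%, and 19% with the fat covariate. Podocyte, mesangial and mural, and hypoxia response lists gave 1 of 10, 0 of 10 and 1 of 13 calls between Lpr and Ctr (Cdkn1c higher and Pdk1 lower), and 4 of 10 (3 higher and 1 lower), 0 of 10 and 2 of 13 (Car9 higher, Pdk1 lower) between DNase and Ctr. Of 14 tubule genes, Pvalb was called higher between Lpr and Ctr and 3 (Pvalb higher, Slc12a3 and Atp6v1g3 lower) between DNase and Ctr. Without Lpr replicate 3 the first comparison called 4 of the tubule genes lower and 0 higher, and of the podocyte list 2 higher and 2 lower. Pvalb then stood at 1.17 (adjusted p = 0.0559 from edgeR). With the fat covariate that comparison called 1 tubule gene, lower, against 10% of all genes. With the offset for gene length 10 of the 14 tubule genes were called between DNase and Ctr, 1 higher and 9 lower, against 26.1% of all genes. A list of 8 skeletal muscle genes summed to between 21.6 and 46.9 CPM in Ctr, 15.3 and 20.5 CPM in Lpr and 4.02 and 11.6 CPM in DNase, with Myh1 called lower between Lpr and Ctr and 7 between DNase and Ctr, led by Myh1, Myh2, Acta1 and Ckm, or 4 of 8 with the fat covariate. Muscle RNA thus moved with the groups, and its part in the endothelial levels was not tested. Of the 10 fat genes listed, 0 of 10 were called between Lpr and Ctr and Pck1 alone, lower, between DNase and Ctr. Of 3 platelet and megakaryocyte genes tested between Lpr and Ctr, 0 were called. Without Lpr replicate 3, Pf4 alone was called, higher, at 1.13 (adjusted p = 0.0484 from edgeR). With the fat covariate 1 of these 3 was called, higher, against 10% of all genes.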

How the data were processed

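RNA-seq of kidneys from 3 Ctr, 4 Lpr and 4 DNase mice was analysed, with 1 library for each mouse. The authors deposited raw read counts per gene, made from paired-end reads of 100 bp. HTSeq, fastp and mm10 are named in the submitters' processing notes, and the aligner, annotation and strand setting are not given in the sources used here. The FPKM values deposited by the authors are these counts divided by library total and gene length, and the length was recovered from that ratio. All columns were used, so the number of unused columns was 0.

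Groups were compared in pairs with edgeR 4.0.16 in R 4.3.3 (filterByExpr, TMM, quasi-likelihood test, Benjamini-Hochberg adjustment over all genes tested), with a call at an adjusted p under 0.05. The rule of the study's methods also asks for an absolute log2 fold change above 2, and DESeq2, named there, was an alternative, here version 1.42.0. Other alternatives were the RLE scaling, no filter, a filter of 1 CPM, all 3 groups in one fit, a robust fit, limma 3.58.1 on log2(FPKM + 1) and log2(FPKM + 0.1) where the mean FPKM reached 0.5, an offset for gene length (loess, span 0.5), the replicate number as a block and each library left out. The length offset without Lpr replicate 3, the fat marker sum as a covariate and its 8 genes were added after seeing the data. The procedure was run on simulated counts with the same spread for every gene and no effect of gene length. The outcome is not given here, and such counts cannot test a library like Lpr replicate 3. The 10 genes and the lists were chosen with earlier results of these data known. All 10 genes passed the filter in every comparison. The 10 genes are named throughout; of other lists, every called gene where 5 or fewer were called and otherwise the 4 with the smallest p. The genes most alike are the 5 with the highest Pearson correlation among genes with a mean of at least 1 CPM. Intervals are 95% intervals of the fit, and p-values set the difference between groups against the spread between mice estimated by the fit. Depth, from 33469858 to 38460873 counts per kidney, was alike between libraries, and the spread between mice sets the precision of the 10 genes. Promoter windows come from RefSeq (GRCm38.p6) and positions from GENCODE vM21. The genes called in the podocyte list between DNase and Ctr are counted, and a named result among them is not reported here. Figures were drawn with matplotlib 3.10.9.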

Additional observations from a re-analysis of the deposited data

Results flagged for a closer look

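Of 32 groups of 4 kidneys examined, 2 held a kidney far from the others, where chance alone gives about 1 in 20 groups. The Flt1 level of Lpr replicate 3 was 24.9 CPM, against 64.9 to 72.9 CPM in the other Lpr kidneys. The slope of log2 CPM on gene length was -0.43 in the same kidney, against 0.03 to 0.06 in the other Lpr kidneys. Flt1 is the longest of the 10 genes, and genes of similar length had a median of -0.82 in this kidney where Flt1 had -1.48.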

How the results depend on the processing

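Of the values recomputed under each alternative, 695 stayed the same. For a fold change this means the same direction and side of the threshold, and for a count, a level or a list median a shift within a set margin. Of the fold changes, 6 passed the threshold only under the alternative (Kdr in 4 of them, Emcn and Vwf in 1 each, as given above) and 30 reversed. Another 19 counts, levels or list medians moved beyond the margin. The causes were not tested except where kidneys are left out. The number of genes called between Lpr and Ctr was 1639, and it was 929 with the fold change threshold, 2460 with DESeq2, 2555 with all 3 groups in one fit, 2994 with the length offset without Lpr replicate 3, and between 852 and 2824 with single kidneys left out, with 852, 911 and 915 without Ctr replicates 1, 2 and 3 and 2824 without Lpr replicate 3, when between 0 and 1 of the 10 genes was called. Between DNase and Lpr DESeq2 called 24 genes and none of the 10. Between DNase and Ctr 3493 genes were called, and 967 with the fold change threshold, 1889 with all 3 groups in one fit and 1869 with the replicate block. Of the 10 genes 1 was called there with DESeq2 and 1 with the length offset, and between 0 and 2 with single kidneys left out, highest without Ctr replicate 2. The replicate numbers do not pair the mice, since the correlations of same-numbered kidneys lay between -0.28 and 0.16 and only 2 of 10 matched best with their own number. With the replicate block 1268 genes were called between Lpr and Ctr and 0 between DNase and Lpr.

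Between DNase and Lpr, Tek stood at 0.0044 and Emcn at 0.0088 with limma on log2(FPKM + 1), and at 0.0065 and 0.0097 on log2(FPKM + 0.1). There Flt1 was -0.094 and Emcn 0.10 with the length offset, Flt1 -0.10 and Emcn 0.062 with the fat covariate, and Kdr -0.022, Flt1 -0.24, Cdh5 -0.073 and Emcn 0.17 with the offset without Lpr replicate 3. Between DNase and Ctr, Ehd3 was 0.072 and 0.077 with limma and 0.025 with the replicate block, and Tek -0.026 with the length offset. With single kidneys left out, Pecam1 ranged from -0.27 to 0.023 and Flt1 from -0.33 to 0.047 between Lpr and Ctr. Between DNase and Lpr, Kdr ranged from -0.045 to 0.34, Flt1 from -0.24 to 0.15, Tek from -0.18 to 0.015, Cdh5 from -0.12 to 0.28, Emcn from -0.23 to 0.19 and Vwf from -0.80 to 0.38. Between DNase and Ctr, Tek ranged from -0.030 to 0.13 and Ehd3 from -0.11 to 0.11. No value of a gene that reversed was called in either setting.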
